A study of Mus musculus with 8 samples.

Results

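Expression of the 6 genes that build, bind and cut the hyaluronan and versican matrix of the cardiac jelly (Has2, Vcan, Hapln1, Cd44, Adamts1 and Adamts9) was compared between Isl1 knockout and wild-type mouse embryos. The genes were picked by name for their roles, and were 6 of the 20701 gene symbols in the deposited table. RNA sequencing libraries were made from pharyngeal mesoderm and hearts of C57BL/6 embryos at E8.75 with 6 somites, and each library came from 1 embryo. There were 4 wild-type embryos and 4 Isl1-/- embryos (Isl1 KO), which carried no other labelled allele or treatment. The knockout was constitutive, so it was not limited to a cell type, and the dissected tissue was a mixture of cell types. In such bulk samples, fewer cells of a type and less RNA per cell cannot be told apart. The labels give total RNA as the molecule of Isl1 KO embryo 2, and polyA RNA for the remaining libraries. Libraries held between 18916449 and 26153048 reads over 1 transcript per gene. Levels are given as CPM (read counts relative to the library total, scaled between libraries by the TMM method). Levels of different genes are compared only as RPKM, which divides by library total and transcript length and has no TMM scaling.

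The cardiac jelly is the extracellular matrix that fills the space between the myocardium and the endocardium of the early heart tube. Its backbone is hyaluronan, a long unsulphated sugar chain that Has2 makes at the cell surface, and the chondroitin sulphate proteoglycan versican (Vcan) binds to it and holds water. Hapln1, a link protein, stabilises the bond between versican and hyaluronan, Cd44 is a cell surface receptor for hyaluronan, and the secreted metalloproteases Adamts1 and Adamts9 cut the versican core protein. Mice without Has2 or without versican fail to form a normal cardiac jelly and endocardial cushions. The product of Isl1 is a transcription factor of the LIM-homeodomain class that marks cardiac progenitors.

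The targeted gene followed the genotype labels. Isl1 (NM_021459, chromosome 13) in wild-type embryos 1 to 4 stood at 9.72, 9.76, 26.9 and 23.3 CPM, against 2.32, 2.16, 1.78 and 2.40 CPM for Isl1 KO embryos 1 to 4. Every Isl1 KO library lay below every wild-type library, although wild-type embryos 1 and 2 held less Isl1 RNA than embryos 3 and 4. On the log2 scale the change was -3.0 ± 0.36 (SE, n = 4 per group, edgeR quasi-likelihood test, FDR = 0.0041). The mean CPM in Isl1 KO embryos was 12.4% of the wild-type mean.

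Of the 6 cardiac jelly genes, 5 had a lower mean in Isl1 KO embryos and 1 (Adamts9) a slightly higher one, where 48.8% of all genes were lower, and all 6 were expressed well enough to be tested. Cd44 was the 1 gene that passed an FDR of 0.05 (edgeR, Benjamini-Hochberg over all genes), against 0.973% of the 14075 genes tested (0.867% in the lower direction and 0.107% in the higher) and 5.03% by DESeq2. At an unadjusted p under 0.05 there were 2 genes, Cd44 and Vcan, against 17.4% of all genes (10.1% lower). Only Cd44 had levels that did not overlap between the groups, which was the case for 10.3% of all genes (6.33% lower). The median log2 fold change of the 6 genes was -0.21, and that of all genes tested was 0.01.

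**Figure D1:**
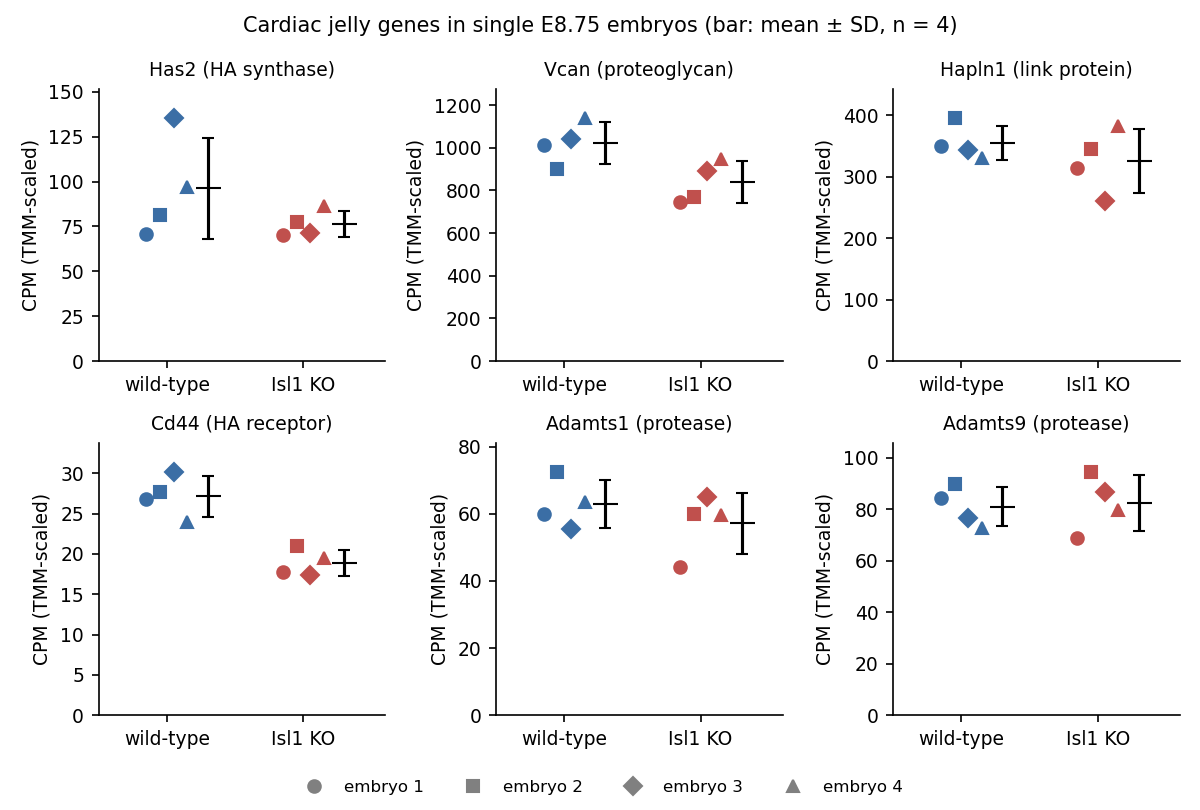
Level of each cardiac jelly gene in single E8.75 embryos, in TMM-scaled CPM on axes that start at 0, with 1 point per embryo and a bar for mean ± SD (n = 4 per group). Cd44 is the gene whose Isl1 KO points (17.4 to 20.9) all lie below the wild-type points (23.9 to 30.1), and Has2 shows the wild-type embryo at 135 that stands above the rest.

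The matrix genes were not expressed at like levels. Averaged over the 8 embryos, Vcan (44.4 RPKM) and Hapln1 (39.9 RPKM) were highest, followed by Has2 at 12.1 RPKM. The proteases stood at 8.05 RPKM (Adamts9) and 7.28 RPKM (Adamts1), and the receptor Cd44 was lowest at 2.70 RPKM. Vcan lay at percentile 93.1 and Cd44 at percentile 34.4 of all genes tested. The neighbours Vcan and Hapln1 did not separate beyond their spread, with 48.0 ± 5.55 and 40.8 ± 2.53 RPKM in wild-type and 40.8 ± 4.89 and 38.9 ± 6.31 RPKM in Isl1 KO embryos (SD, n = 4). Adamts9 and Adamts1 were similarly close, at 7.82 ± 0.575 and 7.49 ± 0.792 RPKM in wild-type embryos.

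The hyaluronan synthase Has2 (NM_008216; NCBIM37, the assembly also called mm9, chr15:56497182-56526094, minus strand) had levels of 71.0, 81.5, 135 and 96.8 CPM across wild-type embryos 1 to 4. In Isl1 KO embryos 1 to 4 it was at 70.2, 77.6, 71.5 and 86.5 CPM. Wild-type embryo 3 stood above all others, and the groups overlapped from 71.0 to 86.5 CPM. The means were 96.2 ± 28.1 and 76.5 ± 7.42 CPM (SD, n = 4), so the spread was 29.3% of the mean in wild-type and 9.7% in Isl1 KO embryos. The log2 fold change of -0.33 ± 0.18 (SE) did not pass the test (edgeR, FDR = 0.364, 95% interval -0.72 to 0.06), and an exact permutation test on CPM (two-sided) had p = 0.229. Without wild-type embryo 3 the log2 fold change was -0.12. An antisense gene, Has2as, shares 182 exonic bases with Has2 (4.3%), and since reads of both strands were counted the transcripts cannot be told apart there.

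The versican gene Vcan (NM_001081249, chr13:89794915-89882117, minus strand) had levels of 1014, 901, 1043 and 1139 CPM across wild-type embryos 1 to 4. The Isl1 KO embryos held 744, 770.3, 891 and 949 CPM. Isl1 KO embryos 1 to 3 lay below every wild-type embryo, and embryo 4 lay above wild-type embryo 2, so the groups overlapped in this narrow range. The mean CPM in Isl1 KO embryos was 81.9% of the wild-type mean, and the fitted log2 fold change was -0.29 ± 0.10 (SE). This passed an unadjusted p (edgeR, p = 0.015) but not the FDR over all genes (FDR = 0.185, 95% interval -0.51 to -0.07), and p was 0.0571 by exact permutation. DESeq2, run as another tool, gave an adjusted p of 0.088.

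Versican is made in isoforms that differ in the exons for attachment of chondroitin sulphate chains. V0 holds exons 7 and 8, V1 exon 8, V2 exon 7, and V3 neither. Exon 8 also codes for the glutamate-alanine bond that ADAMTS proteases cut, so the site exists in V0 and V1 alone. The reference sequence around this bond is shown because it is where the substrate and the proteases of the gene list meet. It lies in coding exon 8 on NCBIM37 at chr13:89832808-89832867 on the minus strand, and is written 5′ to 3′. Capitals mark the earlier of its glutamate-alanine codon pairs, whose middle lies 272 bases from the start of the exon. The bond that is cut belongs to the later such pair, which is left in lower case.
Vcan exon 8 cleavage site: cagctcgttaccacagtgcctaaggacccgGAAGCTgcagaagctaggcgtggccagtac

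Because the deposited Vcan transcript entries were nested, the reads of each alternative exon could be obtained by subtracting counts. Exon 8 (chr13:89827890-89833106) held 57.1 ± 0.776% of Vcan reads in wild-type and 58.1 ± 0.518% in Isl1 KO embryos (SD, n = 4), a difference of 1.0 percentage points (exact two-sided permutation test, p = 0.114). Exon 7 (chr13:89842523-89845402) held 11.6 ± 0.592% and 11.2 ± 0.511% (difference -0.353 percentage points, p = 0.4, same exact test). The rest of the reads, 31.4 ± 0.582% and 30.8 ± 0.951%, came from exons that the V0 to V3 entries share. A further Vcan entry, NM_172955, was not part of this nested series and held 1408 to 2283 reads per library.

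Per base and relative to those shared exons, coverage of exon 8 was 1.51 ± 0.0441 in wild-type and 1.56 ± 0.0618 in Isl1 KO embryos. Coverage of exon 7 was 0.553 ± 0.0311 and 0.549 ± 0.0413. Exon 8, which holds the cleavage site, was therefore covered more densely than exon 7 in both groups. Neither ratio differed beyond the spread between embryos (exact two-sided permutation tests, p = 0.171 for exon 8 and p = 0.83 for exon 7). A ratio above 1 cannot be a share of isoforms, so coverage was uneven along the transcript and isoform shares were not computed.

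**Figure D2:**
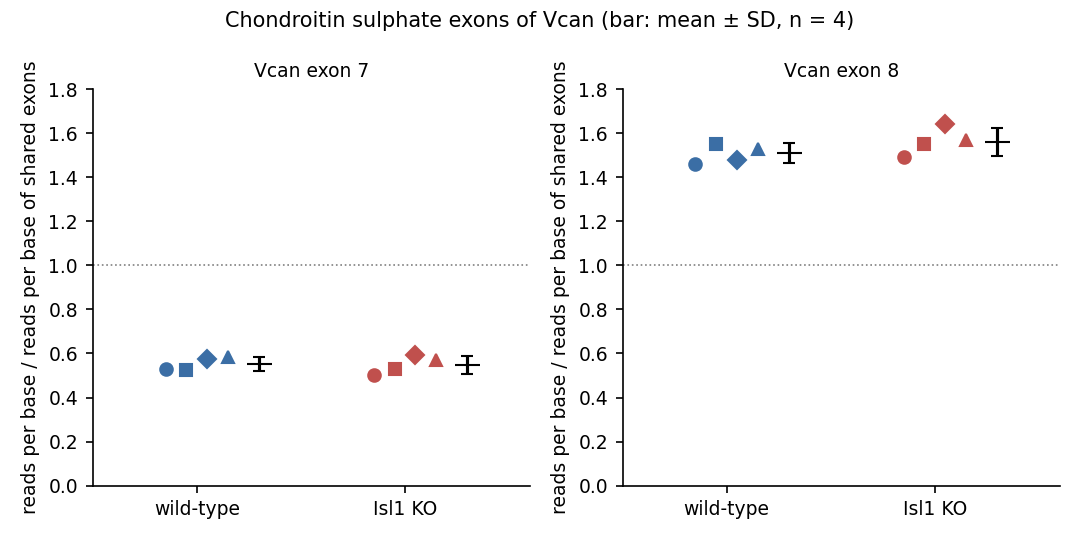
Reads per base of Vcan exons 7 and 8 relative to the exons shared by the V0 to V3 entries, with 1 point per embryo and bars for mean ± SD (n = 4 per group). Exon 8 sits near 1.51 to 1.56 and exon 7 near 0.55 in both genotypes.

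Hapln1, the link protein gene (NM_013500, chr13:89680241-89751437, plus strand), is the direct neighbour of Vcan, with 43477 bases and no other annotated gene between them. Its levels were 349.6, 395, 344 and 329.9 CPM across wild-type embryos 1 to 4. In Isl1 KO embryos 1 to 4 it was at 314, 345, 259.7 and 383 CPM. Isl1 KO embryos 3 and 1 were the lowest, and embryos 2 and 4 lay within the wild-type range. The fold change on the log2 scale, -0.12 ± 0.11 (SE), did not pass (edgeR, FDR = 0.607), and its 95% interval of -0.37 to 0.12 still holds a decrease as large as that estimated for Vcan. The ratio of Hapln1 to Vcan in RPKM was 0.862 ± 0.155 in wild-type and 0.962 ± 0.17 in Isl1 KO embryos (SD, n = 4), and the groups overlapped.

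The receptor gene Cd44 fell in Isl1 KO embryos. Cd44 (NM_001039150, chr2:102651298-102741822, minus strand) had levels of 26.8, 27.6, 30.1 and 23.9 CPM across wild-type embryos 1 to 4. The Isl1 KO embryos held 17.8, 20.9, 17.4 and 19.5 CPM. All Isl1 KO embryos lay below all wild-type embryos, with a gap between Isl1 KO embryo 2 and wild-type embryo 4. The means were 27.1 ± 2.56 and 18.9 ± 1.63 CPM (SD, n = 4), and 69.7% of the wild-type level remained by the fitted log2 fold change of -0.52 ± 0.10 (SE). The call was close to the threshold (edgeR, FDR = 0.0470, 95% interval -0.74 to -0.30), and exact permutation of the embryos gave 0.0286, which is the lowest p possible with 4 against 4. Cd44 rested on 333 to 715 reads per library, fewer than any other gene of the 6. It kept its FDR call without wild-type embryo 3 or without Isl1 KO embryo 2, and lost it without any other single embryo (FDR between 0.0403 and 0.148 over the 8 fits), with a log2 fold change between -0.58 and -0.47.

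The sequence upstream of Cd44 is given because it was the gene that passed the test, and that of Vcan for comparison. Each shows the 250 bases before the RefSeq transcript start on GRCm38.p6, written 5′ to 3′ on the minus strand, at chr2:102901666-102901915 for Cd44 and at chr13:89742513-89742762 for Vcan. Capitals mark TAAT, the core that many homeodomain proteins bind, which was searched on both strands.
Cd44 promoter: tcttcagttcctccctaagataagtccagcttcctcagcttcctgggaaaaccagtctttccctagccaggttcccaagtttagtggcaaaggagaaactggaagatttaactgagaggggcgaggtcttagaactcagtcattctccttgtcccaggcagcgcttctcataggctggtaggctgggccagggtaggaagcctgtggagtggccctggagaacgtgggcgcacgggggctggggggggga
Vcan promoter: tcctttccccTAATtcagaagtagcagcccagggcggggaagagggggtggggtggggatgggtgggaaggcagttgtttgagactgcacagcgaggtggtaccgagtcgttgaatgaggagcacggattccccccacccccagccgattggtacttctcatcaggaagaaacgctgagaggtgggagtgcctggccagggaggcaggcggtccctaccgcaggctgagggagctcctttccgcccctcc

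TAAT occurred in 18041 of 32851 promoter windows of the full table (54.9%). Each window covered the same stretch before the transcript start as the printed sequences. Among the 5 cardiac jelly genes with a RefSeq promoter entry (Has2 had no match), the windows of Vcan and Hapln1 held 1 match each and those of Cd44, Adamts1 and Adamts9 held 0. The letters describe the sequence and do not mark binding sites.

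Cd44 is spliced into a standard form and into forms with variable exons. The 10 variable exons, by the difference between the longest and the shortest nested entry, held 19, 30, 21 and 15 reads in wild-type embryos 1 to 4. They held 24, 20, 7 and 19 reads in Isl1 KO embryos 1 to 4. These were 3.28 ± 1.08% and 4.01 ± 1.37% of Cd44 reads (SD, n = 4), a difference of 0.736 percentage points (exact two-sided permutation test, p = 0.429). Per base, variable exons were covered at 0.121 ± 0.0414 and 0.149 ± 0.0525 of the shared exons, so they were covered far less densely than the shared exons in both groups. The entry used for the Cd44 levels, NM_001039150, was not nested in the longest entry, NM_009851. It is shorter (5036 against 5631 bases) but held more reads over all libraries (4306 against 4303).

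The 3 genes with the profile most like that of Cd44 over the 8 embryos, by the root mean square difference of centred log2(CPM + 1), were Dnajb6 (0.0665), Bmp5 (0.0753) and Flnc (0.0764). Bmp5, a secreted BMP ligand, had a log2 fold change of -0.43 (edgeR, FDR = 0.0372), from 62.7 to 46.6 CPM. Flnc, a filamin of striated muscle, was at -0.37 (FDR = 0.0814) and the co-chaperone gene Dnajb6 at -0.56 (FDR = 0.0863). Likeness was scored over both genotypes and so includes the group difference itself.

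The proteases did not pass the test. Adamts1 (NM_009621, chr16:85794072-85803358, minus strand) had levels of 60.01, 72.4, 55.5 and 63.4 CPM across wild-type embryos 1 to 4. The Isl1 KO embryos held 44.1, 60.02, 64.9 and 59.6 CPM. Isl1 KO embryo 1 was the lowest and the others overlapped. Its log2 difference was -0.14 ± 0.12 (SE; FDR by edgeR = 0.612, 95% interval -0.42 to 0.14).

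Adamts9 (NM_175314, chr6:92722693-92893486, minus strand) had levels of 84.5, 89.7, 76.7 and 72.8 CPM across wild-type embryos 1 to 4. In Isl1 KO embryos 1 to 4 it was at 68.8, 94.4, 86.7 and 79.8 CPM, which spans the wild-type range on both sides. Its log2 difference was 0.03 ± 0.10 (SE; FDR by edgeR = 0.913, 95% interval -0.20 to 0.26). A730049H05Rik shares 1381 and Gm15737 shares 424 of the 12527 annotated exonic bases of Adamts9, on the other strand. Reads there cannot be told apart by gene. The counted transcript has 6004 bases, and whether the shared bases lie within it was not checked. The ratio of Adamts9 to Vcan in RPKM was 0.166 ± 0.0314 in wild-type and 0.205 ± 0.0342 in Isl1 KO embryos, and that of Adamts1 to Vcan was 0.158 ± 0.0317 and 0.174 ± 0.0221 (SD, n = 4). Both ratios overlapped between the groups.

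**Figure D3:**
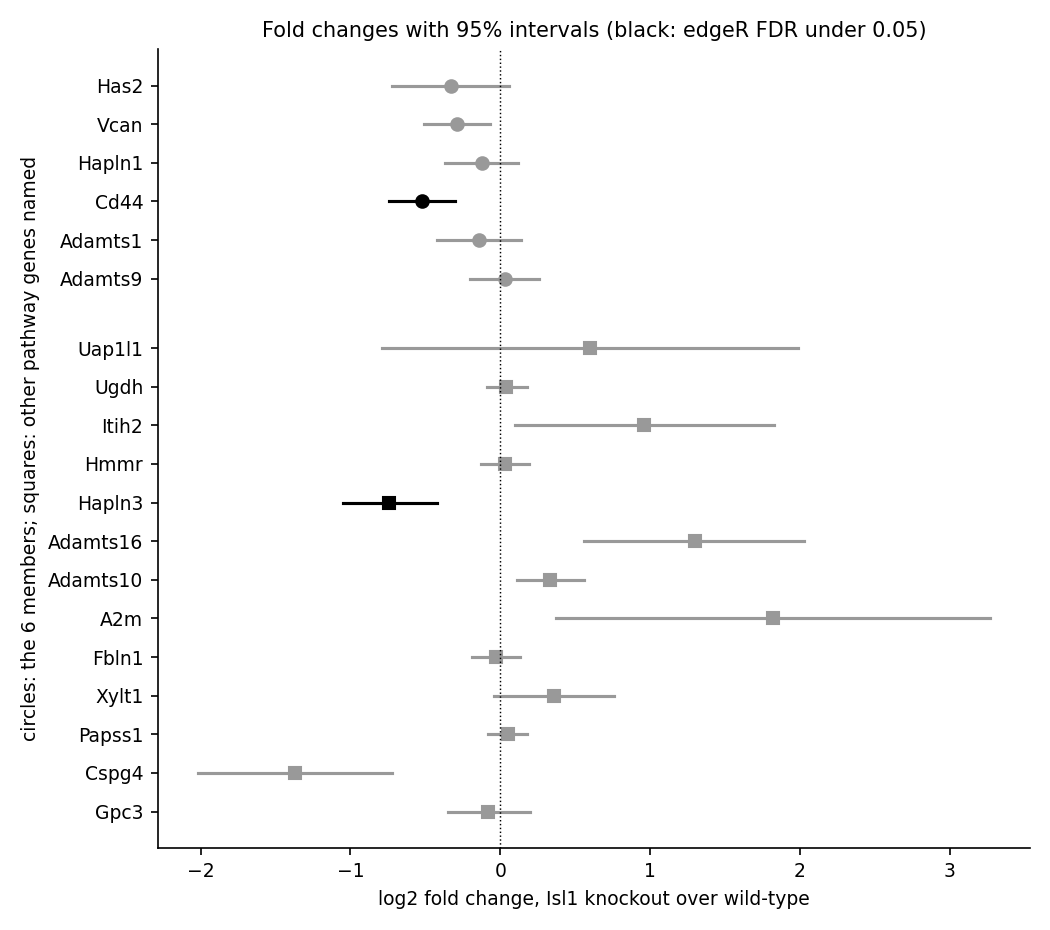
Log2 fold change of Isl1 KO over wild-type for the cardiac jelly genes and the other named matrix genes, with bars for the 95% interval from edgeR (not adjusted for the number of genes). Cd44 (-0.52) and Hapln3 (-0.74) are the genes past the FDR, and the intervals of Has2, Hapln1, Adamts1 and Adamts9 include 0.

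Genes with related roles were counted in 7 lists of 116 genes, of which 104 were tested. A single gene, Hapln3, passed the FDR (0.962%, against 0.973% of all genes), 34 genes had a lower mean in Isl1 KO embryos (32.7%, against 48.8% of all genes) and 70 a higher one, and the median log2 fold change was 0.11, against 0.01. There were 18 genes with an unadjusted p under 0.05 (17.3%, against 17.4% of all genes), and 10 whose levels did not overlap (9.62%, against 10.3%). The shares past each threshold were thus close to the background of all genes, while the directions leaned to the higher side.

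Hapln3, a second link protein gene, fell from 8.01, 8.87, 10.6 and 7.75 CPM across wild-type embryos 1 to 4 to 4.68, 5.76, 5.12 and 5.58 CPM in Isl1 KO embryos 1 to 4. No Isl1 KO embryo reached the lowest wild-type embryo. Its log2 difference was -0.74 ± 0.14 (SE; FDR by edgeR = 0.0463, 95% interval -1.05 to -0.42). It kept its call without wild-type embryo 3 (FDR = 0.0385) and lost it without any other single embryo (FDR up to 0.134). At 2.91 RPKM it was expressed far below Hapln1. Among the 5 lecticans and link proteins tested, 2 were lower and 3 higher, and Ncan, a brain lectican (0.59, FDR = 0.186), was the other gene with a p under 0.05.

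Of the 10 tested genes of hyaluronan synthesis and its sugar precursors, 5 were lower and 5 higher, and 0 passed the FDR (edgeR). The 2 with an unadjusted p under 0.05 in edgeR were Gfpt2 (-0.40, FDR = 0.116), an enzyme that starts the route to the N-acetylglucosamine precursor, and Ugp2 (-0.24, FDR = 0.141), which makes UDP-glucose. Both were singled out after their values were seen. Ugdh, which turns UDP-glucose into the glucuronic acid precursor, had the highest level of the list (33.0 RPKM) and a log2 fold change of 0.04, and Uap1l1 had the largest fold change (0.60, FDR = 0.66). Uap1l1 was at 13.4 to 17.5 CPM in wild-type embryo 3 and Isl1 KO embryos 2 and 3. These embryos also had the highest endoderm marker sums, and a link between the values was not tested. The log2 fold change of Uap1l1 was 0.155 without Isl1 KO embryo 2 and 1.23 without wild-type embryo 3. Has1, another synthase, had too few reads to be tested.

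Of the 13 tested genes of hyaluronan binding and turnover, 2 were lower and 11 higher, with a median of 0.23 and 0 past the FDR (edgeR). The 2 with an unadjusted p under 0.05 were Itih2 (0.96, FDR = 0.243), a heavy chain that is transferred to hyaluronan, and the hyaluronidase gene Hyal1 (0.36). Itih2 was near the limit of detection at 0.225 RPKM. Hmmr, a hyaluronan-binding protein of dividing cells, was the highest at 28.4 RPKM with a log2 fold change of 0.03. The higher means of Lyve1, Stab2 and Habp2, named after their values were seen, rested on Isl1 KO embryos 2 and 3. Lyve1 was at 33.7 and 22.2 CPM there, against 2.28 and 3.72 CPM in Isl1 KO embryos 1 and 4. Not every higher gene had this pattern, and Hyal1 was highest in Isl1 KO embryo 1.

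The other ADAMTS and ADAMTS-like genes had 5 lower and 15 higher members among 20 tested, a median of 0.19 and 0 past the FDR (edgeR), with 5 at an unadjusted p under 0.05. These were Adamts10 and Adamts16, described next, and Adamts18 (0.53), the versican-cutting protease gene Adamts20 (0.33) and Adamtsl2 (-0.74), the last 3 singled out after their values were seen. Adamts10, which acts on fibrillin microfibrils, had 32.1, 35.8, 32.7 and 28.1 CPM across wild-type embryos and 46.0, 35.9, 40.0 and 40.2 CPM in Isl1 KO embryos 1 to 4. The groups were separated only by the small gap between wild-type embryo 2 and Isl1 KO embryo 2, and the log2 fold change of 0.33 did not pass (FDR = 0.143). Adamts16 had the largest fold change (1.30, FDR = 0.0944) at 0.114 RPKM, and was at 0.129 on the log2(RPKM + 1) scale, which compresses changes of low genes. Summed over the list, CPM ran from 180.7 to 202 in wild-type and from 211 to 226 in Isl1 KO embryos, without overlap. The sums of every other matrix list overlapped between the groups. Of all genes tested, 48.8% were lower and 17.4% had an unadjusted p under 0.05 (edgeR).

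Of 8 tested inhibitors and cofactors of ADAMTS proteases, 4 were lower and 4 higher, with a median of 0.05 and 0 past the FDR (edgeR). A2m, with the 1 unadjusted p under 0.05 of the list, is a broad protease inhibitor. It had the largest fold change (1.82, FDR = 0.199), carried by Isl1 KO embryos 3 and 4 at 21.4 and 39.5 CPM against 2.74 to 8.81 CPM in the other 6 embryos. Fbln1, a versican-binding cofactor of Adamts1, was the highest at 41.3 RPKM, with a log2 fold change of -0.03. Its direction flipped between settings.

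In chondroitin sulphate chain synthesis, 7 of 24 tested genes were lower and 17 higher, with a median of 0.09 and 0 past the FDR (edgeR). The gene with an unadjusted p under 0.05 was Chsy1 (-0.20, FDR = 0.223), a chain polymerase, named after its value was seen. Xylt1, which adds the first sugar of the chain, was at 0.36 (FDR = 0.333), and Papss1, which makes the sulphate donor, was highest in the list at 18.6 RPKM with 0.05.

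Among 24 tested genes of other matrix glycoproteins and proteoglycans, 9 were lower and 15 higher, with a median of 0.05 and 0 past the FDR (edgeR). The proteoglycan gene Cspg4 had the largest fold change. It had 4.67, 3.55, 4.04 and 4.45 CPM across wild-type embryos and 1.04, 0.995, 2.25 and 2.25 CPM in Isl1 KO embryos 1 to 4, without overlap (-1.37, FDR = 0.0622, and -0.214 on the log2(RPKM + 1) scale). Its neighbours by unadjusted p were the fibrillin genes Fbn2 (-0.36, FDR = 0.0863) and Fbn1 (-0.28), with Fbln2 (0.29) and Gpc1 (0.19) on the higher side, these 4 singled out after their values were seen. Gpc3, a glypican, was highest at 171.6 RPKM, with a log2 fold change of -0.08 that flipped between settings.

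**Figure D4:**
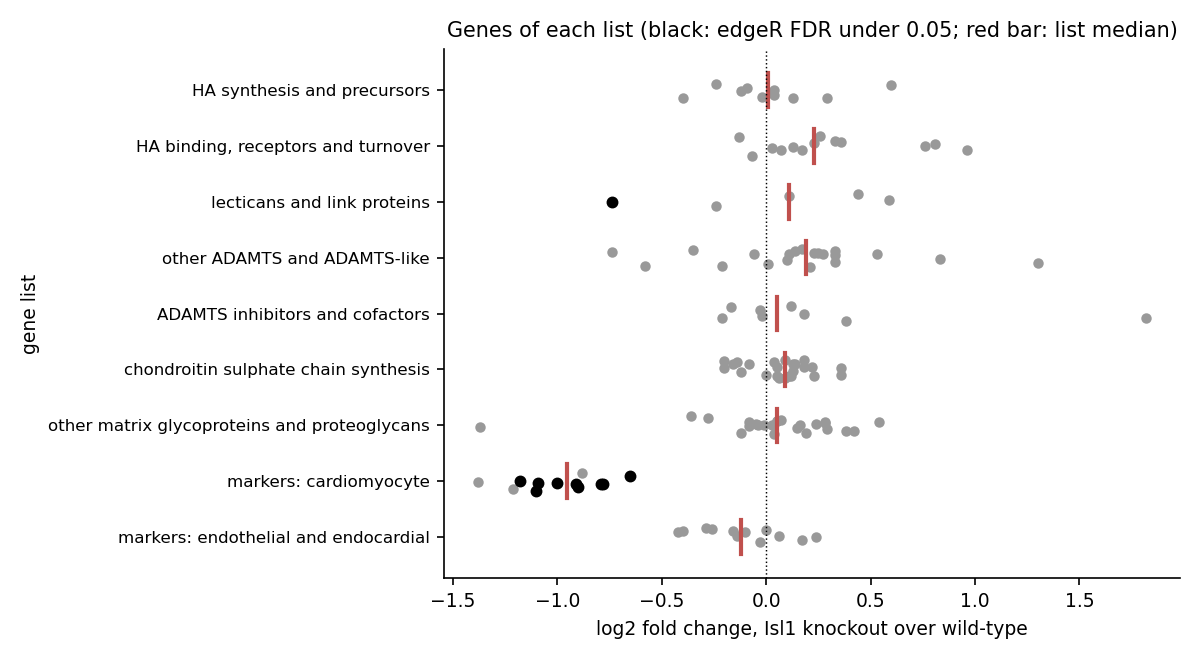
Log2 fold change of every tested gene in the 7 matrix lists and in the cardiomyocyte and endothelial marker lists, 1 point per gene, with a bar for the list median. The matrix lists have medians between 0.01 and 0.23, and the cardiomyocyte markers lie at a median of -0.96.

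Cell type markers were counted beside these results, and their part in them was not tested. All 12 cardiomyocyte markers were lower in Isl1 KO embryos and 9 passed the FDR (edgeR), with a summed level of 3139 to 4716 CPM in wild-type and 1706 to 2562 CPM in Isl1 KO embryos. Of 12 endothelial and endocardial markers, 8 were lower, 4 higher and 0 past the FDR (2 at an unadjusted p under 0.05), with sums of 428 to 555 CPM and 359 to 498 CPM that overlapped. No marker of either list was at 0 in all embryos. The lowest wild-type cardiomyocyte sum, 3139 CPM, was that of embryo 3, and the other wild-type embryos were at 4325 to 4716 CPM.

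The marker sums of the surrounding tissues overlapped between the groups as well, with 0 genes past the FDR or at an unadjusted p under 0.05 (edgeR). Neural crest and neural tube markers summed to 462 to 524 CPM in wild-type and 458 to 592 CPM in Isl1 KO embryos (2 of 10 genes lower, median 0.06). Endoderm markers ran from 323 to 1296 CPM and from 296 to 1952 CPM (2 of 10 lower, median 0.15). Paraxial and head mesenchyme markers ran from 210.2 to 266.5 CPM and from 217 to 319.6 CPM (1 of 10 lower, median 0.13), and primitive erythroid markers from 370.5 to 2367 CPM and from 1258 to 3129 CPM (0 of 8 lower, median 0.49). Wild-type embryo 3 held the lowest erythroid sum and the highest endoderm sum of its group. Whether this bears on the high Has2 level of that embryo was not tested.

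Embryo sex was unbalanced: Y-linked genes were expressed in 1 of 4 wild-type (embryo 4) and 3 of 4 Isl1 KO embryos (all but embryo 2). Within embryos without Y-linked expression, wild-type embryos 1 to 3 held 26.8 to 30.1 CPM of Cd44 and Isl1 KO embryo 2 held 20.9 CPM. Within embryos with it, wild-type embryo 4 was at 23.9 CPM and the Isl1 KO embryos at 17.4 to 19.5 CPM. Cd44 was lower in Isl1 KO embryos in both classes, and with Y-linked expression as a covariate its log2 fold change was -0.41 (edgeR, FDR = 0.151). For Vcan, the Isl1 KO embryo without Y-linked expression was at 770.3 CPM against 901 to 1043 CPM, and those with it were at 744 to 949 CPM against 1139 CPM. A class with 1 embryo on a side gives no test.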

How the data were processed

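RNA-seq libraries of 4 wild-type and 4 Isl1 KO embryos were compared, grouped by the sample titles. The authors mapped reads to mm9 with STAR (introns of 20 to 500000 bases) and counted reads on both strands over RefSeq exons with HOMER, so the deposited counts were raw counts per transcript entry. The authors computed the deposited RPKM from these counts and the transcript lengths with edgeR, and a recalculation differed by 0.000492 at most. Lengths in bases, as deposited, were used for RPKM ratios and exon coverage. Versions of these tools were not given in the sources used here. Columns with the authors' own DESeq2 comparison (mean, log2 fold change, standard error, statistic and p-values) were not used.

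Of 31507 entries, the one with the highest summed count was kept per symbol (5808 symbols had more than 1). In R 4.3.3, edgeR 4.0.16 was run with filterByExpr, TMM and genotype as its only term on 14075 genes, two-sided, with Benjamini-Hochberg adjustment (FDR). Single values were compared by exact two-sided permutation tests. Alternatives were DESeq2 1.42.0, RLE factors, no filter, limma 3.58.1 on log2(RPKM + 1) and log2(RPKM + 0.1), the longest transcript, a replicate block, a Y-linked covariate, and leaving out each embryo. The edgeR steps were tested on simulated data. Reads carried no molecular identifiers, so read counts are not counts of separate RNA molecules. Positions came from GENCODE on NCBIM37 and promoters from RefSeq GRCm38.p6; tables were made with pandas 2.3.3 and plots with matplotlib 3.10.9.

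The named genes were the 6 members, Isl1, the Y-linked genes as a group, in each list every gene past the FDR, the one with the largest fold change and the one with the highest RPKM, and the 3 genes most like Cd44 with at least 1 CPM. The members and lists were chosen with earlier results of these data known.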

Additional observations from a re-analysis of the deposited data

How the results depend on the processing

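Has2, Vcan, Hapln1 and Adamts1 kept their direction and stayed short of an FDR of 0.05 under every alternative. Leaving out each embryo in turn moved the log2 fold change of Has2 between -0.45 and -0.12, Vcan between -0.35 and -0.23, Hapln1 between -0.21 and -0.03, and Adamts1 between -0.20 and -0.03. Cd44 kept its direction in all fits. It passed under DESeq2 (adjusted p = 0.000369), RLE factors and the longest transcript, but not with no filter (-0.51, FDR = 0.0564), limma on log2(RPKM + 1) (-0.34, FDR = 0.0907), limma on log2(RPKM + 0.1) (-0.45, FDR = 0.0936) or the Y-linked covariate (-0.41, FDR = 0.151), and leaving out embryos gave -0.58 to -0.47. Fewer samples enter the leave-one-out fits, and the limma fits used RPKM, which has no TMM scaling between libraries. The cause of these differences was not tested for any setting. Adamts9 ranged from -0.04 to 0.10 when embryos were left out, was at 0.02 to 0.14 in the other fits, and turned negative without wild-type embryo 4 (-0.02) or Isl1 KO embryo 2 (-0.04). Genes past the FDR numbered 137, and 712 by DESeq2, with 70 to 490 when embryos were left out (490 without wild-type embryo 3). The count of other pathway genes was 1, and 6 by DESeq2 (Adamts10, Adamts16, Cspg4, Fbn2, Gfpt2 and Hapln3), 0 with no filter, 0 with the Y-linked covariate and 0 to 1 without single embryos, against 18 at an unadjusted p under 0.05 in edgeR. Hapln3 kept its call without 1 of the 8 embryos, and its FDR without the filter was 0.0564. Fbln1 turned positive under limma (0.028 and 0.029), the Y-linked covariate (0.022) and without wild-type embryo 2 (range over left-out embryos -0.081 to 0.02). Hmmr turned negative with the covariate (-0.016) and without wild-type embryo 3 (range -0.02 to 0.061). Gpc3 turned positive with the covariate (0.007) and without wild-type embryo 2 (0.004) or Isl1 KO embryo 1 (range -0.178 to 0.009). The exon differences of Vcan and Cd44 kept their direction. Replicate numbers were not treated as pairs. The labels give them no shared litter or day, the deviations of same-numbered embryos correlated at 0.124, 0.195, 0.0355 and 0.559, not all above 0.1, and 2 of 8 embryos correlated best with their own number. With the replicate number as a block, 76 genes passed, Cd44 was at -0.52 (FDR = 0.128), Hapln3 had an FDR of 0.115 and 0 other pathway genes passed. The pseudocount of log2(RPKM + 1) shrinks low genes by construction (Adamts16 0.129, Cspg4 -0.214, Itih2 0.18, A2m 0.828). A2m was at 1.07 without Isl1 KO embryo 4. Depth limits Cd44 splicing, with 7 to 30 variable-exon reads per library.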
